A study of Homo sapiens with 9 samples.

Results

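The RAB GTPases are the largest branch of the RAS superfamily. The genes described here were those whose platform symbol is RAB followed by a number and at most a letter and a digit, with a probe detected above background (detection p under 0.05) on at least 3 arrays. By symbol 62 genes qualified, with 87 probes, and 50 of them had a detected probe. These 50 are part of 12498 named genes tested in the whole data set.

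A RAB protein cycles between a GTP-bound form, which sits on a membrane and recruits effectors, and a GDP-bound form, which is drawn off the membrane by GDP dissociation inhibitors. Guanine nucleotide exchange factors (GEFs) switch RABs on and GTPase-activating proteins (GAPs) switch them off. Each RAB marks a particular compartment, and in endocrine cells RAB3 and RAB27 proteins bring hormone granules to the plasma membrane. RABL6A, the protein depleted in the study, is a RAB-like GTPase outside the numbered family.

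All RNA came from BON-1, an established human pancreatic neuroendocrine tumour cell line. The cells carried a lentiviral control vector, or pLKO.1 with shRNA 1 or shRNA 2 against RABL6A, a product of the gene RABL6. Each of these 3 groups held 3 Illumina HumanHT-12 v4 arrays, numbered 1 to 3 in the labels. Each group's arrays came from cell sets made separately, per the extraction protocol given for the samples, with no word on whether the transductions were separate. The p-values therefore cover only the spread among these arrays, which may be technical. The study asked how RABL6A depletion alters the cells. In bulk RNA, fewer cells of a kind and less RNA per cell cannot be told apart.

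Arrays were similar in quality, with median raw signals of 119 to 129 and 41.4% to 44.9% of probes detected. All 11 neuroendocrine markers (among them CHGA, CHGB, SYP and INSM1) were detected on 9 of 9 arrays. Of 6 fibroblast markers only PDGFRB reached 3 arrays, and COL3A1 and LUM were detected on 0. PTPRC, CD3E, PECAM1 and CDH5 were also detected on 0 arrays. CD68, LYZ and KDR were detected on 9 arrays and VWF on 5. The summed signal of the immune list was 1078 to 1159 with vector and 1020 to 2915 with the shRNAs, that of the endothelial list 118 to 124 and 141 to 241, and that of the fibroblast list 265 to 274 and 269 to 309. The neuroendocrine sum was 71120 to 72190 with vector and 52480 to 66830 with the shRNAs. The part of these shifts in the RAB values was not tested.

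The arrays labelled replicate 2 of each shRNA went against their labels. Across genes, which are not independent replicates, shRNA 1 replicate 2 had a Pearson correlation of 0.994 with shRNA 2 replicate 1 and of 0.933 with shRNA 1 replicate 1. The array shRNA 2 replicate 2 had 0.995 with shRNA 1 replicate 1 and 0.933 with shRNA 2 replicate 1. The RAB genes carried the same pattern. In 37 of 50 of them (74%) both arrays read nearer to replicates 1 and 3 of the other shRNA than to those of their own, as in 65.4% of all tested genes. Groups follow the labels throughout, and results are also given on 7 arrays, without these 2. The 2 arrays were picked out by their values, which narrows the spread within each shRNA, so p-values and calls on 7 arrays are too favourable. Differences between the shRNAs on 7 arrays are given as a description, with no test. If the 4 shRNA arrays kept were the exchanged ones, shRNA 1 and shRNA 2 would trade places in every comparison between them.

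RABL6 itself, the targeted gene, had a log2 signal of 7.57, 7.73 and 7.82 on the vector arrays, 6.01, 5.99 and 5.22 on those of shRNA 1, and 5.67, 5.69 and 5.69 on those of shRNA 2. Every knockdown array lay below every vector array. The change was -1.99 (SE 0.19, limma adjusted p = 0.0014, 6 arrays against 3), or -1.01 with no background correction, and p was 0.0119 in a two-sided exact permutation test, the lowest value possible with 84 splits.

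Set against vector, both shRNAs together left most RAB genes within the spread between arrays, with larger changes in single members. RAB5B and RAB22A, both of early endosomes, fell to about a 3-fold lower signal. RAB40B, a RAB joined to a ubiquitin ligase, rose 2.69-fold. RAB21, RAB15, RAB33B, RAB5A, RAB9A and RAB11B rose by smaller amounts. In all 9 of 50 tested RAB genes passed the test (limma, Benjamini-Hochberg adjusted p under 0.05 over all genes), 7 higher and 2 lower. That is 18%, beside 16.6% of all 12498 genes, so the share was near the background. RAB11B is among the 9, and it passed the detection filter only through the knockdown arrays. Higher calls made up 8.54% and lower calls 8.09% of all genes. The median change was 0.08 over the RAB genes and 0.03 over all genes, and the median size of change was 0.38 and 0.30.

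The calls depended on single arrays, in all genes as in the RAB genes. Without vector replicate 1, 2 or 3 there were 1, 2 and 1 RAB genes called, beside 4.4%, 3.91% and 4.07% of all genes. Without shRNA 2 replicate 1 there were 5, beside 11.6% of all genes. With all 9 arrays the share of all genes was 16.6%. RAB40B kept its call without any single array. RAB21 lost it without vector replicate 1 or 3, and RAB5A and RAB15 without any of the 3 vector arrays. RAB5B lost it without any vector array or without shRNA 1 replicate 1 or 3, and RAB22A without these or shRNA 2 replicate 1. RAB33B lost it without any vector array, shRNA 1 replicate 1 or shRNA 2 replicate 1. RAB9A was still called only without shRNA 1 replicate 3 or shRNA 2 replicate 2, and RAB11B only without shRNA 1 replicate 1. The highest adjusted p over all alternatives was 0.0171 for RAB40B, 0.0636 for RAB21 and 0.177 for RAB11B. Median centring, used instead of quantile normalization, gave 2 higher and 4 lower RAB genes, beside 16.4% of all genes called. It moved the median of all genes from 0.03 to -0.08.

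On 7 arrays 25 of 50 RAB genes were called, 12 higher and 13 lower, beside 41.2% of all genes (20.7% higher and 20.5% lower). All 9 genes called on 9 arrays were among them. On the labelled 9 arrays, 16 RAB genes (32%) had all 6 knockdown arrays on one side of all 3 vector arrays, 11 above and 5 below, beside 29.2% of all genes (15% above and 14.2% below). On 7 arrays these were 17 RAB genes, 11 above and 6 below, beside 32.6% of all genes (16.8% above and 15.8% below). RAB14 is among these 6 and among the 13 lower calls. It passed the detection filter only through the vector arrays, where it is higher, so it carries little weight in these counts. The plot of changes per array shows both kinds of pattern, with members that moved the same way on all knockdown arrays and members whose knockdown arrays split.

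**Figure D1:**
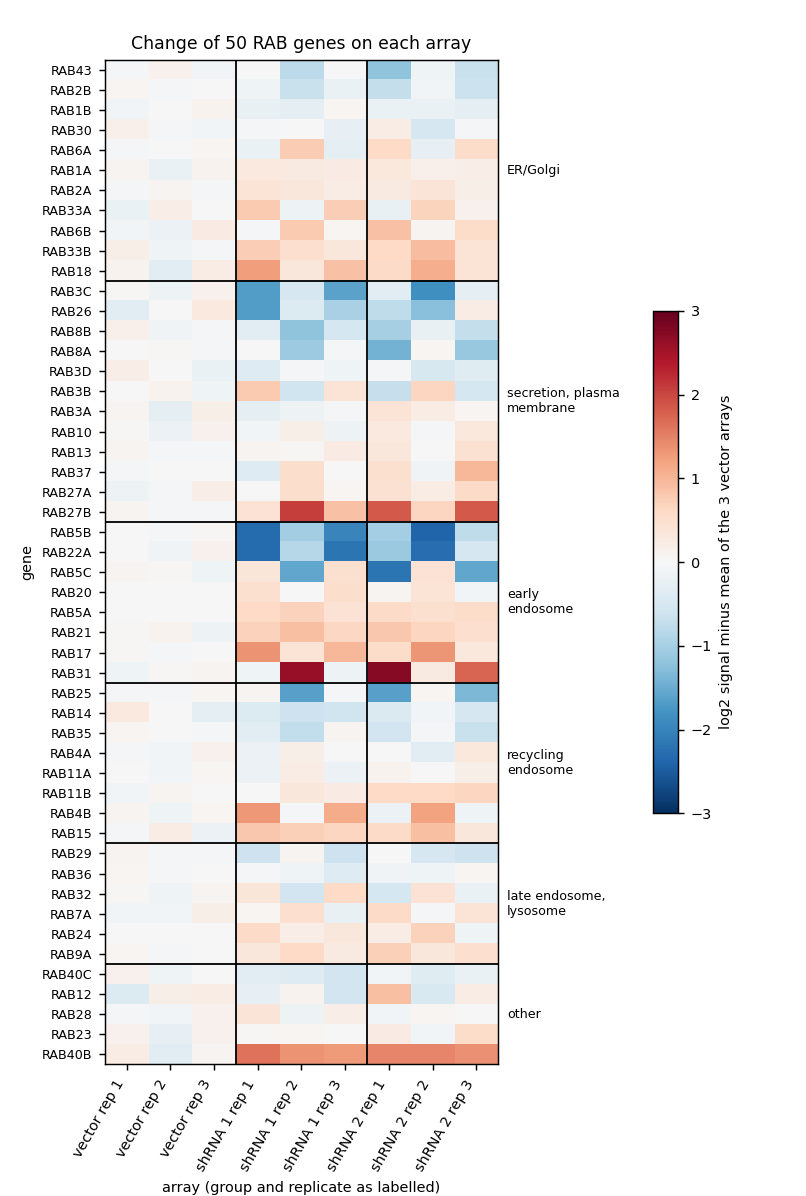
Change of each of the 50 tested RAB genes (rows, grouped by role) on each of the 9 arrays (columns, as labelled), as log2 signal minus the mean of the 3 vector arrays. RAB5B and RAB22A are blue and RAB40B is red on all 6 knockdown arrays, whereas RAB31, RAB5C and RAB25 differ between knockdown arrays of the same label.

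**Figure D2:**
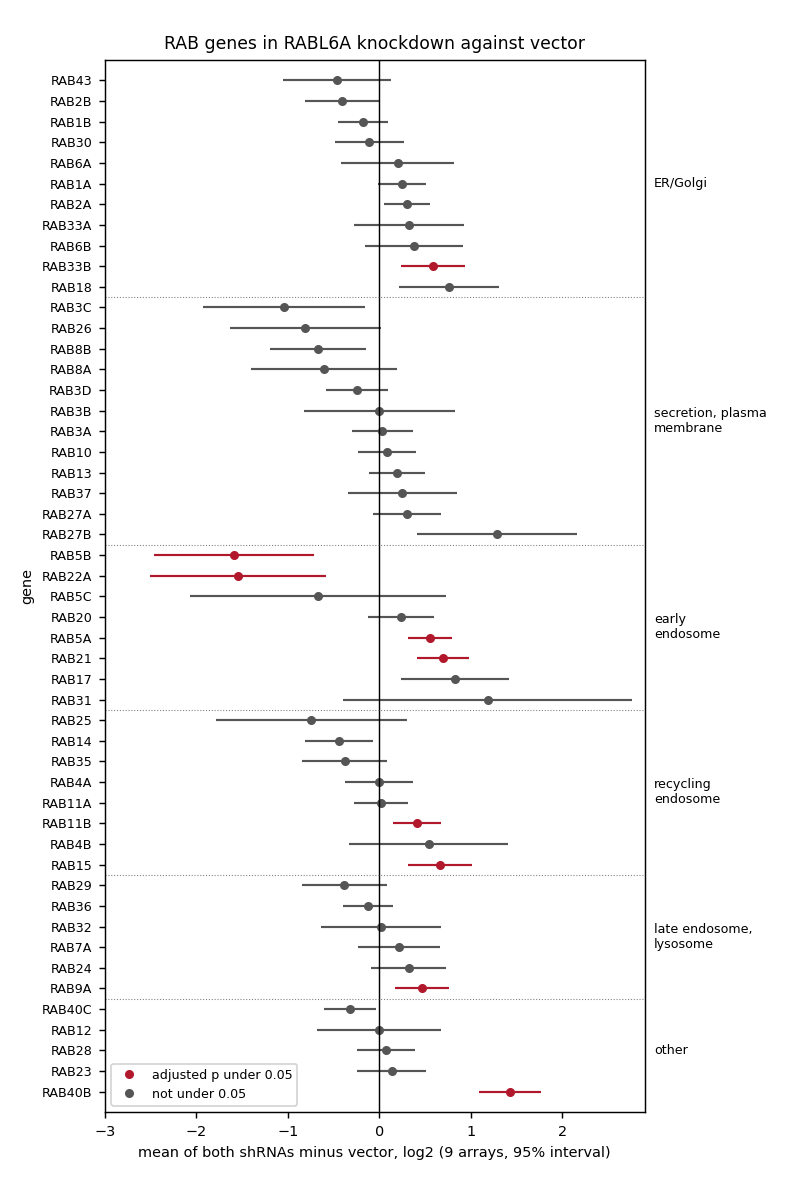
Mean of both shRNAs minus vector for each RAB gene on the log2 scale, from the fit to 9 arrays, with 95% intervals. Red marks the 9 genes with an adjusted p under 0.05, of which RAB5B and RAB22A lie below 0 and the other 7 above.

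The early endosome group held both the lowest and some of the highest changes. Of 8 tested members, 2 rose and 2 fell on 9 arrays, and 4 rose and 3 fell on 7, with a median change of 0.40 on 9 arrays. On 7 arrays the calls of RAB31 and RAB5C join unlike values. RAB31 was at -0.14 with shRNA 1 and 2.24 with shRNA 2, and RAB5C at 0.43 and -1.87. Here and for the groups below, the shares of all genes called were 8.54% higher and 8.09% lower on 9 arrays, and 20.7% and 20.5% on 7. The RAB5 proteins RAB5A, RAB5B and RAB5C drive fusion of endocytic vesicles with early endosomes, and RAB21, RAB22A and RAB31 are their closest relatives. RAB22A acts in early endosomes and recycling, RAB31 (also called RAB22B) between the trans-Golgi network and endosomes, and RAB21 in the traffic of integrins.

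RAB5B read 10.55, 10.51 and 10.59 on the vector arrays, 8.24, 9.50 and 8.57 on those of shRNA 1, and 9.52, 8.14 and 9.80 on those of shRNA 2. All 6 knockdown arrays lay below the vector arrays, with shRNA 1 replicates 1 and 3 and shRNA 2 replicate 2 lowest. The change was -1.59 (SE 0.39, adjusted p = 0.0262), a 3.01-fold lower signal, and -1.52 (SE 0.12, adjusted p = 0.000178) on 7 arrays. It was called with shRNA 1 alone, at -1.78 (adjusted p = 0.0385), but not with shRNA 2 alone, at -1.40 (adjusted p = 0.0874).

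RAB22A followed the same array order. It read 8.80, 8.71 and 8.94 on the vector arrays, 6.50, 7.95 and 6.63 on those of shRNA 1, and 7.71, 6.53 and 8.31 on those of shRNA 2. The groups did not overlap, and the 3 arrays that were lowest for RAB5B were lowest here too. The change was -1.54 (SE 0.42, adjusted p = 0.0394) on 9 arrays and -1.53 (SE 0.15, adjusted p = 0.000326) on 7. With no filter on dim probes it was not called (adjusted p = 0.0621).

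RAB5A rose evenly. Its values were 9.81, 9.77 and 9.80 on the vector arrays, 10.40, 10.49 and 10.22 on those of shRNA 1, and 10.37, 10.27 and 10.34 on those of shRNA 2. Every knockdown array was above every vector array, and the shRNA 2 values lay within the range of the shRNA 1 values. The change was 0.55 (SE 0.11, adjusted p = 0.0122), or 1.47-fold, and it was called with each shRNA alone (0.58 and 0.53). It was not called with median centring. RAB21 rose likewise, from 9.57, 9.64 and 9.39 on the vector arrays to 10.24, 10.44 and 10.17 on those of shRNA 1 and 10.34, 10.18 and 10.04 on those of shRNA 2. The change was 0.70 (SE 0.13, adjusted p = 0.00953), and both shRNAs passed alone, at 0.75 and 0.65.

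RAB5C split the knockdown arrays. It read 8.45, 8.39 and 8.24 on the vector arrays, 8.73, 6.79 and 8.85 on those of shRNA 1, and 6.17, 8.78 and 6.81 on those of shRNA 2. On shRNA 1 replicate 2 and shRNA 2 replicates 1 and 3 it lay below all vector arrays, and on the other 3 knockdown arrays above them. The change on 9 arrays was -0.67 (SE 0.61, adjusted p = 0.49). On 7 arrays it was -0.72 (SE 0.15, adjusted p = 0.00691), and shRNA 2 minus shRNA 1 was -2.30. A second RAB5C probe, ILMN_2399140, read a change of only -0.04 (SE 0.17), against -0.67 for the probe used, ILMN_1769665, so the size of the RAB5C difference rests on 1 probe.

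RAB31 split the same arrays in the opposite direction. Its vector values were 5.53, 5.70 and 5.75, those of shRNA 1 were 5.53, 8.28 and 5.50, and those of shRNA 2 were 8.39, 5.93 and 7.41. The signal was far above vector on shRNA 1 replicate 2 and shRNA 2 replicates 1 and 3, and within or near the vector range on the other 3. The change was 1.18 (SE 0.69, adjusted p = 0.279) on 9 arrays and 1.05 (SE 0.21, adjusted p = 0.00506) on 7, where shRNA 2 minus shRNA 1 was 2.39.

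Paralogs therefore differed within single arrays. These pairs were chosen with earlier results of these data known, so the differences are given with no test. The change of RAB5B minus that of RAB5A was -2.92, -1.75 and -2.41 on the shRNA 1 arrays and -1.60, -2.88 and -1.30 on the shRNA 2 arrays, against -0.02 to 0.03 on the vector arrays. RAB22A minus RAB31 ran from -3.84 to -2.03 on the knockdown arrays and from -0.15 to 0.11 on the vector arrays. RAB5B minus RAB5C had both signs, from -2.83 on shRNA 2 replicate 2 to 1.16 on shRNA 2 replicate 1.

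**Figure D3:**
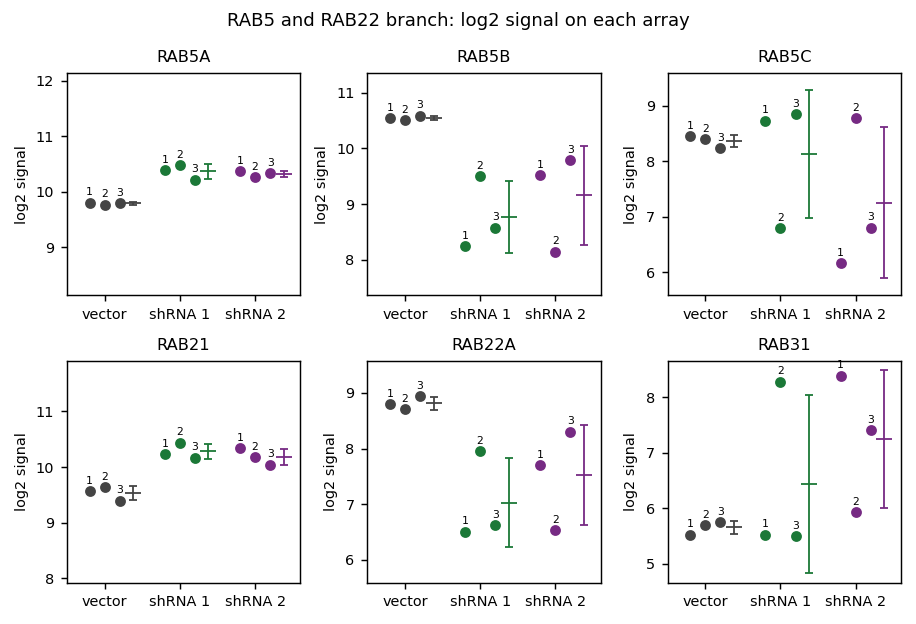
Log2 signal of 6 related early endosome RAB genes on each array, with dots numbered by replicate and bars for the group mean and SD (n = 3). Each panel spans 4 log2 units. RAB5A and RAB21 are higher and RAB5B and RAB22A lower on all 6 knockdown arrays, and RAB5C and RAB31 split them.

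The bases upstream of these genes are shown because members of one subfamily moved in opposite directions, together with RAB40B, which moved evenly on all knockdown arrays. Each line gives the 250 bases before the annotated start, 5′ to 3′ on the strand of the gene, from RefSeq (GRCh38.p14). Capitals mark matches on either strand to the GC box GGGCGG, the CCAAT box CCAAT, the E-box CACGTG and the lysosomal CLEAR element, an E-box with GT before it and AC after it. They also mark the cyclic AMP response element TGACGTCA and the E2F forms TTTCCCGC, TTTCGCGC, TTTGCCGC and TTTGGCGC where present.
RAB5A: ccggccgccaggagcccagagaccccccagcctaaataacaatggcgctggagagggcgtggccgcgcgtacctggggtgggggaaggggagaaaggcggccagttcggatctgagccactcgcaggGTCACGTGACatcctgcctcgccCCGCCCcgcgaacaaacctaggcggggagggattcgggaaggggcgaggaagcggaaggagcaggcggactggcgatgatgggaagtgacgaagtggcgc
RAB5B: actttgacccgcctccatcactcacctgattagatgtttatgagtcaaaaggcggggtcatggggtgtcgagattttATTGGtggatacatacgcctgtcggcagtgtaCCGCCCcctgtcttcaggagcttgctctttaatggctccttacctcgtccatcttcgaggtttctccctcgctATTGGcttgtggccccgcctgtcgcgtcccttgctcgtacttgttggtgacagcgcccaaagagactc
RAB5C: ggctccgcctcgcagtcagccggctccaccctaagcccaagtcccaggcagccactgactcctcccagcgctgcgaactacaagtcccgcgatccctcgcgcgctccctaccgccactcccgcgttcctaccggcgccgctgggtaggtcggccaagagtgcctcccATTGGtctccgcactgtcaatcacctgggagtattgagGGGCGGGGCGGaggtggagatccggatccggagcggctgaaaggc
RAB22A: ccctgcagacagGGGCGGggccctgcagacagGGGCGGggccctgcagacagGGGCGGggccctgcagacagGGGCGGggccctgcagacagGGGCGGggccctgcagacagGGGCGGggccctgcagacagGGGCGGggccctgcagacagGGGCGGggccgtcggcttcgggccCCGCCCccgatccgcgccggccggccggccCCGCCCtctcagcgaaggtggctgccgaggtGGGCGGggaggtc
RAB31: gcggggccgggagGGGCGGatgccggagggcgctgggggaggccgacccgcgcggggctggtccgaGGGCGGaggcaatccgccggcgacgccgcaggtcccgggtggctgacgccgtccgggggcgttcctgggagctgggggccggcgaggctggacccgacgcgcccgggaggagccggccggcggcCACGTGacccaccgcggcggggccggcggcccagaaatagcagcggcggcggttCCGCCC
RAB40B: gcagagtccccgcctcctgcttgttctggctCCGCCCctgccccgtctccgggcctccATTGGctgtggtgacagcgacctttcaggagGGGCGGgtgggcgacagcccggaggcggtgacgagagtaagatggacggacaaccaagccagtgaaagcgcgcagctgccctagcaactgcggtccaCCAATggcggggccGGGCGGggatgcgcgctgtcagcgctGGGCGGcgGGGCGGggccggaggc

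The RAB5A stretch (chr3:19946847-19947096, plus strand) held the CLEAR element, starting 123 bases before the start, and 1 GC box. RAB5B (chr12:55973699-55973948, plus strand) had the lowest share of G and C of the 6, at 54.0%, and held 2 CCAAT boxes and 1 GC box. RAB5C (chr17:42154990-42155239, minus strand) held 1 CCAAT box and 2 GC boxes that overlap by 1 base. RAB22A (chr20:58309465-58309714, plus strand) held 11 GC boxes, of which 8 lay exactly 20 bases apart in a tandem repeat. RAB31 (chr18:9708051-9708300, plus strand) held 1 E-box and 3 GC boxes, and RAB40B (chr17:82698699-82698948, minus strand) 2 CCAAT boxes and 5 GC boxes.

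Of the 50 RAB genes 40 were matched to an upstream sequence. A GC box was in 34 of these (85%), beside 65.6% of the 10044 tested genes with a sequence and 42.3% of all 27305 upstream sequences. The E-box was in 5 (12.5%, beside 8.86% of tested genes), the CCAAT box in 11 (27.5%, beside 35.3%), and the CLEAR element in RAB5A alone (2.5%, beside 0.677%). The cyclic AMP response element was in 1 (2.5%, beside 2.95%). The E2F forms were in 0 of 40, beside 4.43% of tested genes. The median share of G and C was 65.6% in the RAB genes and 64.4% in tested genes. These are matches of letters in a short window, with no measurement of binding.

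Also of the early endosome group, RAB17, which acts in transcytosis in epithelial cells, read 10.38, 10.31 and 10.33 on the vector arrays, 11.67, 10.75 and 11.34 on those of shRNA 1, and 10.88, 11.67 and 10.66 on those of shRNA 2. All knockdown arrays were above all vector arrays, with shRNA 1 replicates 1 and 3 and shRNA 2 replicate 2 highest. The change of 0.83 (SE 0.26) did not pass on 9 arrays (adjusted p = 0.0613) and did on 7 (0.80, SE 0.12, adjusted p = 0.00129). RAB20, a RAB of maturing phagosomes, was at 0.24 (adjusted p = 0.335).

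Of 8 tested genes of recycling endosomes, 2 rose and 0 fell on 9 arrays, and 3 rose and 3 fell on 7, beside 16.6% and 41.2% of all genes called. The median change was 0.01 on 9 arrays. RAB15, which acts in endocytic recycling, read 7.67, 7.92 and 7.53 on the vector arrays, 8.53, 8.43 and 8.36 on those of shRNA 1, and 8.28, 8.60 and 8.04 on those of shRNA 2. The groups did not overlap, and the change was 0.66 (SE 0.15, adjusted p = 0.022), though it was not called with median centring. RAB11A and RAB11B both steer cargo through recycling endosomes. RAB11B was detected on 0 of 3 vector arrays and 4 of 6 knockdown arrays, with a change of 0.41 (adjusted p = 0.0437). It was kept only through the group in which it is higher, so this call carries little weight. With the vector level raised to the lowest signal of any detected probe on each array, the knockdown mean was 1.1-fold higher. This is not a lower bound, since undetected knockdown arrays kept their measured values. The RAB11B probe is near background, and the call was lost with no background correction and with normexp at an offset of 50. RAB11A, at 0.02 (95% interval -0.27 to 0.31), was detected on all arrays.

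RAB25, the epithelial relative of RAB11A, read 10.83, 10.84 and 10.93 on the vector arrays, 10.96, 9.24 and 10.84 on those of shRNA 1, and 9.24, 10.93 and 9.53 on those of shRNA 2. It was more than 1 log2 unit below vector on shRNA 1 replicate 2 and shRNA 2 replicates 1 and 3, and close to the vector range on the other 3. The change was -0.74 (SE 0.46, adjusted p = 0.301) on 9 arrays. On 7 arrays it was -0.73 (SE 0.11, adjusted p = 0.00138), with shRNA 2 minus shRNA 1 at -1.51.

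RAB4A and RAB4B act in the fast recycling route. RAB4B read 7.25, 7.03 and 7.23 on the vector arrays, 8.47, 7.10 and 8.28 on those of shRNA 1, and 6.98, 8.38 and 7.05 on those of shRNA 2. Only shRNA 1 replicates 1 and 3 and shRNA 2 replicate 2 were above the vector range. Its change was 0.54 (SE 0.38, adjusted p = 0.369) on 9 arrays and 0.52 (SE 0.11, adjusted p = 0.0054) on 7. RAB4A was at 0.00 (95% interval -0.37 to 0.37). A second RAB4B probe read a smaller change, of 0.15. The others were RAB14, which links endosomes and the Golgi, at -0.44 (adjusted p = 0.0986, detected on 0 of 3 shRNA 1 arrays), and RAB35, of fast recycling, at -0.38 (adjusted p = 0.237). RAB14 was detected on 3 of 3 vector arrays and 1 of 3 shRNA 2 arrays. It was kept only through the group in which it is higher, so its call on 7 arrays carries little weight.

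Of the 12 tested genes of regulated secretion and delivery to the plasma membrane, limma called 0 on 9 arrays, with 3 at an unadjusted p under 0.05 (32% of all genes), and on 7 arrays 1 rose and 4 fell (41.2% of all genes called). Their median change was 0.02 on 9 arrays. RAB27A and RAB27B dock secretory granules at the plasma membrane. RAB27B read 6.06, 5.93 and 5.95 on the vector arrays, 6.41, 8.04 and 6.85 on those of shRNA 1, and 7.83, 6.63 and 7.83 on those of shRNA 2. It was above all vector arrays on all 6 knockdown arrays, most on shRNA 1 replicate 2 and shRNA 2 replicates 1 and 3. The change was 1.28 (SE 0.38, adjusted p = 0.0523), which missed the threshold on 9 arrays, and 1.25 (SE 0.12, adjusted p = 0.000326) on 7. With no background correction it was 0.67 (adjusted p = 0.089) on 9 arrays. RAB27A changed less, by 0.30 (SE 0.16, adjusted p = 0.234), and its second probe read -0.14 (SE 0.21).

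The RAB3 genes, whose products act at synaptic vesicles and hormone granules, did not move as a set. RAB3C read 8.94, 8.75 and 9.02 on the vector arrays, 7.23, 8.39 and 7.30 on those of shRNA 1, and 8.57, 7.06 and 8.61 on those of shRNA 2. All 6 knockdown arrays lay below the vector arrays. The change was -1.04 (SE 0.39, adjusted p = 0.102) on 9 arrays and -0.98 (SE 0.10, adjusted p = 0.000384) on 7, where shRNA 2 minus shRNA 1 was 1.33.

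RAB3B read 8.50, 8.61 and 8.38 on the vector arrays, 9.27, 7.89 and 8.91 on those of shRNA 1, and 7.81, 9.14 and 7.96 on those of shRNA 2. The knockdown arrays lay on both sides of the vector arrays, 3 above and 3 below, so the mean change of 0.00 (95% interval -0.83 to 0.83) averaged opposite values. On 7 arrays shRNA 2 minus shRNA 1 was -1.21. RAB3A was at 0.03 (95% interval -0.30 to 0.37) and RAB3D at -0.25 (95% interval -0.59 to 0.10), with overlapping groups in both.

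RAB26, which acts in the maturation of secretory granules, read 7.98, 8.29 and 8.59 on the vector arrays, 6.62, 7.88 and 7.30 on those of shRNA 1, and 7.52, 7.04 and 8.52 on those of shRNA 2. The groups overlapped through shRNA 2 replicate 3. The change was -0.81 (SE 0.36, adjusted p = 0.163) on 9 arrays and -0.80 (SE 0.27, adjusted p = 0.043) on 7. RAB37, a RAB of exocytosis, was at 0.25 (adjusted p = 0.547), with its 3 probes between -0.13 and 0.25. RAB8A and RAB8B carry cargo from the Golgi to the plasma membrane and the cilium. RAB8A was at -0.61 (SE 0.35, adjusted p = 0.274) and RAB8B at -0.67 (SE 0.23, adjusted p = 0.084), and both were called on 7 arrays, at -0.65 and -0.64. There RAB8A was at -0.02 with shRNA 1 and -1.28 with shRNA 2, so its mean joins unlike values. RAB8B was at -0.43 and -0.86. RAB10, of glucose transporter vesicles, and RAB13, of tight junctions, were at 0.09 and 0.19.

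**Figure D4:**
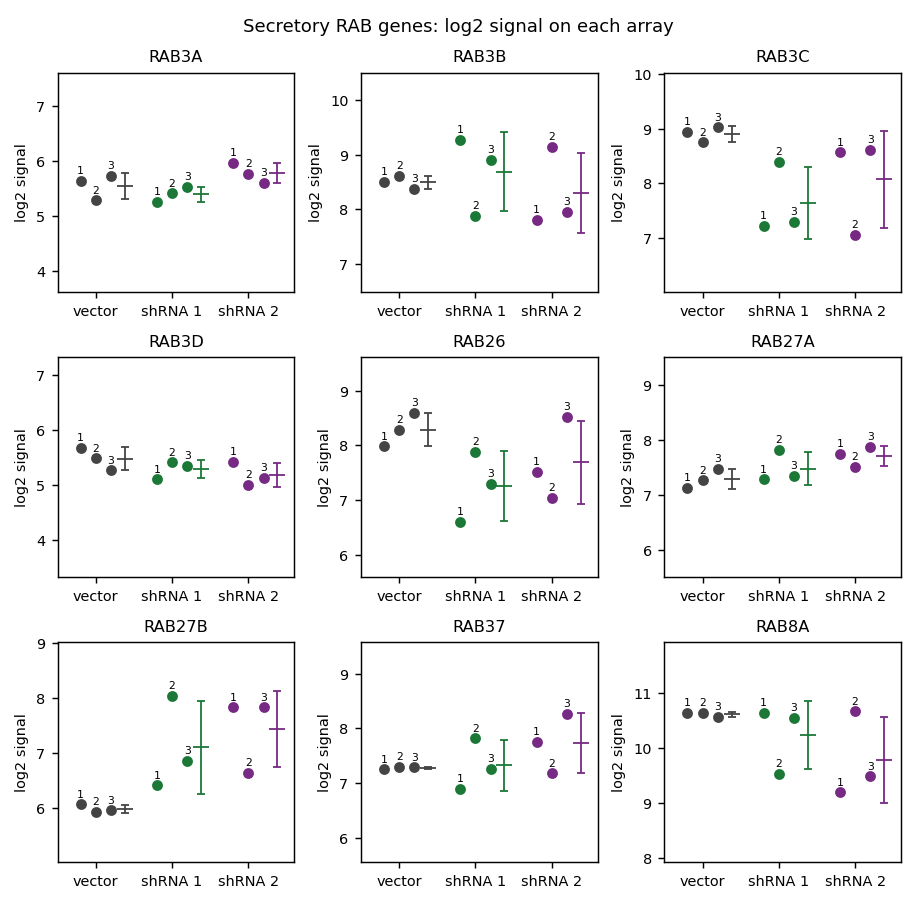
Log2 signal of 9 RAB genes of secretion and plasma membrane delivery on each array, with dots numbered by replicate and bars for the group mean and SD (n = 3). Each panel spans 4 log2 units. RAB27B is above vector and RAB3C below it on all 6 knockdown arrays, and RAB3B and RAB8A vary between knockdown arrays of 1 label.

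Of 11 tested genes of the endoplasmic reticulum and Golgi, 1 rose and 0 fell on 9 arrays, and 2 rose and 2 fell on 7, beside 16.6% and 41.2% of all genes called. The median was 0.25 on 9 arrays. RAB33B, a Golgi RAB that also binds the autophagy protein ATG16L1, read 7.59, 7.30 and 7.36 on the vector arrays, 8.15, 7.92 and 7.77 on those of shRNA 1, and 8.02, 8.35 and 7.82 on those of shRNA 2. The groups did not overlap. The change was 0.58 (SE 0.16, adjusted p = 0.0357), and it was not called with median centring. RAB18, of lipid droplets and the endoplasmic reticulum, rose on 7 arrays by 0.78 (SE 0.16, adjusted p = 0.00567), while on 9 arrays it was at 0.76 (SE 0.24, adjusted p = 0.0634), with all 6 knockdown arrays above the vector arrays.

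RAB1A and RAB1B, which act between the endoplasmic reticulum and the Golgi, were at 0.25 and -0.18, and RAB2A and RAB2B, of the same route, at 0.30 and -0.40. RAB2B was called on 7 arrays (-0.42, adjusted p = 0.00817), as was the Golgi RAB RAB43 (-0.47, adjusted p = 0.0275). On these arrays shRNA 1 and shRNA 2 gave -0.16 and -0.68 for RAB2B, and -0.01 and -0.93 for RAB43. RAB6A, of transport within and from the Golgi, was at 0.20 (adjusted p = 0.649). It had shRNA 2 minus shRNA 1 at 0.81 on 7 arrays.

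Of 6 tested genes of late endosomes, lysosomes and autophagy, 1 rose and 0 fell on 9 arrays, and 1 rose and 1 fell on 7, beside 16.6% and 41.2% of all genes called. The median was 0.11 on 9 arrays. RAB9A, which returns mannose 6-phosphate receptors to the Golgi, read 9.83, 9.71 and 9.78 on the vector arrays, 10.12, 10.36 and 10.04 on those of shRNA 1, and 10.49, 10.12 and 10.27 on those of shRNA 2. All knockdown arrays were above all vector arrays. The change was 0.46 (SE 0.13, adjusted p = 0.0422), and it was not called with median centring or cyclic loess. RAB7A, the main RAB of late endosomes, was at 0.21 (95% interval -0.24 to 0.66). RAB24, linked to autophagy, was at 0.32 (adjusted p = 0.256) with 5 kept probes from 0.14 to 0.50, of which ILMN_1714393 passed in the fit to single probes (adjusted p = 0.0226). RAB29, a partner of the kinase LRRK2, was at -0.38 (adjusted p = 0.237) and was called on 7 arrays at -0.47 (adjusted p = 0.0359). RAB32, of lysosome-related organelles, was at 0.01, and RAB36 at -0.12.

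RAB40B had the smallest adjusted p of all RAB genes in each of the 3 comparisons with vector. RAB40 proteins carry a SOCS box, by which they join CUL5 ubiquitin ligases. RAB40B read 7.91, 7.38 and 7.78 on the vector arrays, 9.33, 9.04 and 8.97 on those of shRNA 1, and 9.14, 9.14 and 9.07 on those of shRNA 2. The lowest knockdown array was more than 1 log2 unit above the highest vector array. The change was 1.43 (SE 0.15, adjusted p = 0.00186), and 1.43 with each shRNA alone (adjusted p = 0.00534 and 0.00488). The difference between shRNAs was 0.00 with a 95% interval from -0.39 to 0.40. Its relative RAB40C was at -0.32 (SE 0.12, adjusted p = 0.113), and was called with median centring at -0.47 (adjusted p = 0.044). The change of RAB40B minus that of RAB40C was 1.55 to 1.96 on the knockdown arrays and -0.18 to 0.09 on the vector arrays. RAB12, RAB23 and RAB28 were at 0.00, 0.14 and 0.07.

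**Figure D5:**
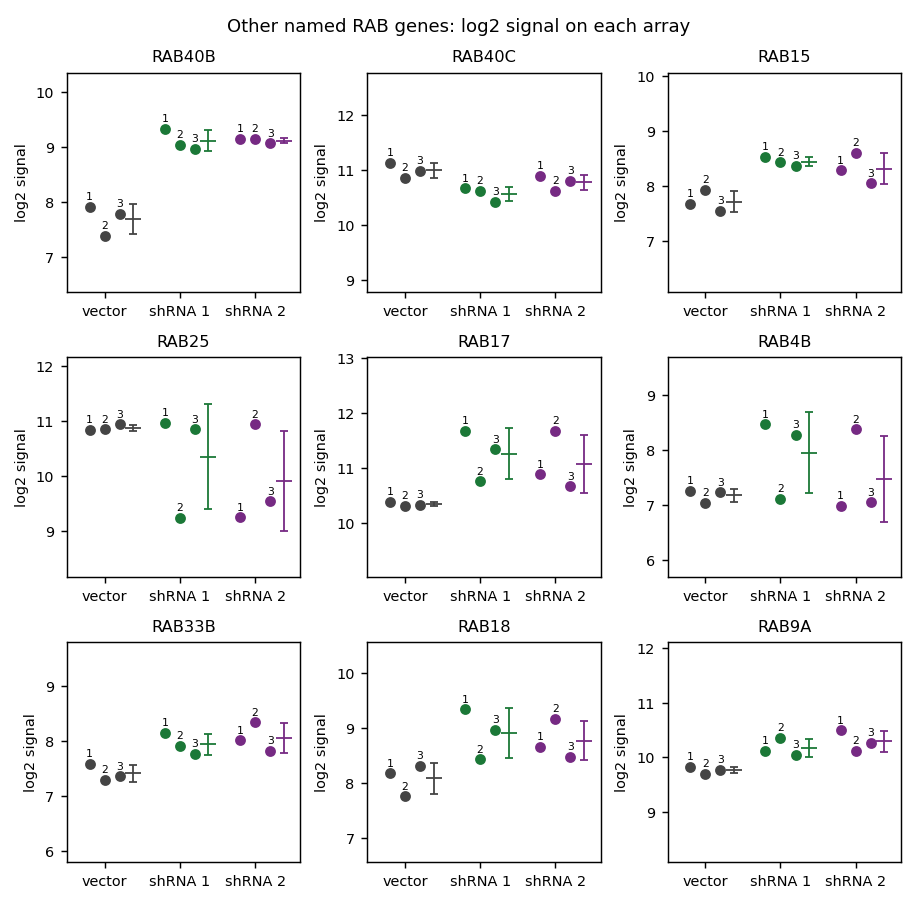
Log2 signal of 9 further RAB genes on each array, with dots numbered by replicate and bars for the group mean and SD (n = 3). Each panel spans 4 log2 units. RAB40B and RAB15 are above vector on all knockdown arrays, and RAB25 and RAB4B split them in opposite directions.

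Each shRNA alone gave fewer calls, and both comparisons share the vector arrays. With shRNA 1, 5 RAB genes passed (10%, beside 11.1% of all genes, 5.58% higher and 5.56% lower), namely RAB40B, RAB21, RAB15 and RAB5A, which rose, and RAB5B, which fell. Without vector replicate 1, 2 or 3, or shRNA 1 replicate 1, this count was 1, RAB40B. It was 3 without shRNA 1 replicate 3 or shRNA 2 replicate 1, 9 without shRNA 1 replicate 2 and 8 without shRNA 2 replicate 2. The split of 4 higher and 1 lower became 2 and 3 with median centring and 4 and 2 with cyclic loess. With shRNA 2, 4 rose (8%, beside 4.6% of all genes higher, 4.08% lower and 8.68% in all), namely RAB40B, RAB21, RAB5A and RAB11B. RAB11B passed the detection filter mainly through the shRNA 2 arrays (detected on 3, and on 0 vector arrays), so its call carries little weight. No RAB gene fell by limma at the adjusted threshold, whereas 4 were lower at an unadjusted p under 0.05. In either direction that unadjusted level was reached by 14 of 50 RAB genes and 25.8% of all genes. Without any one vector array, or without shRNA 2 replicate 1, the count at the adjusted threshold was 1, RAB40B. Without shRNA 2 replicate 2 it was 4, with RAB27B higher and RAB8A lower in place of RAB21 and RAB5A. Without shRNA 2 replicate 3 it was 4, with RAB15 and RAB33B in place of RAB5A and RAB11B. On 7 arrays shRNA 1 gave 22 RAB genes, 14 higher and 8 lower, beside 43.9% of all genes (23.4% higher and 20.5% lower). On the same arrays shRNA 2 gave 26, 16 higher and 10 lower, beside 35.4% (17.3% higher and 18.1% lower). Some of these genes passed the detection filter only through the side on which they are higher, so their calls carry little weight. With shRNA 1 these were RAB33A (higher) and RAB14 (lower), and with shRNA 2 RAB6B and RAB11B (both higher).

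Between the shRNAs as labelled, limma called 0 of 50 RAB genes and 0% of all genes. At an unadjusted p under 0.05 there was 1 RAB gene and 0.768% of all genes. The gene was RAB11B, which was kept mainly through the shRNA 2 arrays (detected on 3 of 3, against 1 of 3 of shRNA 1), so no difference is given for it. On 7 arrays 26 RAB genes passed the threshold, 14 higher and 12 lower with shRNA 2, beside 41.2% of all genes (19.3% higher and 21.9% lower). Since the arrays left out were picked by their likeness to the other shRNA, these counts are no test of a difference between the shRNAs. The 26 genes include RAB11B, RAB33A and RAB6B, which passed the detection filter only through knockdown arrays. The sizes were greatest for RAB31 (2.39) and RAB5C (-2.30), followed by RAB25, RAB22A, RAB4B and RAB3C. RAB5A, RAB21, RAB33B and RAB40B, called with both shRNAs together, had differences on 7 arrays from -0.04 to 0.05. In RAB15 and RAB9A, also called together, the differences were -0.28 and 0.30. They were larger in RAB5B and RAB22A, the 2 called genes that fell, at 1.25 and 1.44.

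The regulators and partners of RABs were taken from lists fixed with earlier results of these data known. Of 40 tested GEF genes, 6 rose and 2 fell (20%, beside 16.6% of all genes), with a median change of 0.05. MON1B, part of the exchange factor that activates RAB7, fell by 1.30 (SE 0.22), and SBF1, a DENN-domain protein, by 0.87 (SE 0.13). DENND1B, an exchange factor for RAB35, rose by 1.25 (SE 0.26). RABGEF1, or Rabex-5, which activates RAB5 proteins, rose by 0.64 (SE 0.14). Also higher were DENND2C at 0.73 and the TRAPP complex subunit TRAPPC6B at 0.68. RABGEF1 read 7.42, 7.01 and 7.09 on the vector arrays, 7.77, 7.67 and 7.97 on those of shRNA 1, and 7.69, 7.84 and 7.92 on those of shRNA 2. All its knockdown arrays were above all vector arrays, as for RAB5A and unlike RAB5B.

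Of 35 tested GAP genes, 5 rose and 5 fell (28.6%), with a median of 0.23. Here and for the effectors below, 16.6% of all genes were called, 8.54% higher and 8.09% lower, with a median of 0.03. TBC1D13, a GAP for RAB35, fell by 1.19 (SE 0.12), with knockdown values of 6.07 to 6.43 below vector values of 7.30 to 7.46. TBC1D24, TBC1D22B and TBC1D2B were also lower, at -0.91, -0.78 and -0.72. SGSM2, SGSM1, TBC1D23 and RAB3GAP2, a subunit of the GAP complex of RAB3, were higher by 0.57 to 0.87. Of 46 tested effector genes, 8 rose and 2 fell (21.7%, beside 16.6% of all genes), with a median of 0.21. All 3 class V myosins, motors that RAB proteins such as RAB11A and RAB27A recruit to vesicles, were among them. MYO5A rose by 1.59 (SE 0.26) and MYO5B by 0.91 (SE 0.13), while MYO5C fell by 1.15 (SE 0.21).

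MYO5A read 6.36, 6.43 and 6.47 on the vector arrays, 7.82, 8.33 and 7.49 on those of shRNA 1, and 8.71, 7.55 and 8.16 on those of shRNA 2, with no overlap. The RAB8 partner OPTN rose by 1.09 (SE 0.15) and the Golgi matrix protein GOLGA2 by 1.07 (SE 0.16). KIF20A, a kinesin known both as a RAB6 partner and as a mitotic motor, fell by 1.56 (SE 0.42). Of 7 tested genes of prenylation and GDP dissociation inhibition, limma called 0, and 1 had an unadjusted p under 0.05, as had 32% of all genes. On 7 arrays 22 of 40 GEF genes, 22 of 35 GAP genes, 21 of 46 effector genes and 2 of 7 prenylation genes were called, beside 41.2% of all genes.

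Of the 62 RAB genes by symbol, 12 had no probe detected on 3 arrays. RAB19, RAB34, RAB39A, RAB39B, RAB40A, RAB42, RAB6C, RAB6D and RAB7B were detected on 0 arrays, and RAB38, RAB41 and RAB9B on 1. No gene was detected on exactly 2 arrays. Just inside the limit of 3 arrays lay RAB33A and RAB6B, both detected on 0 of 3 vector arrays, with raw signals of 111 to 145 and 112 to 149. The changes of these 2 with both shRNAs together were not called (0.32 and 0.38). With the vector level raised as for RAB11B, their knockdown means were 1.06-fold and 1.02-fold higher. These are not lower bounds either, since undetected knockdown arrays kept their measured values. A gene near this limit could be kept through the group in which it is higher. RAB6C and RAB6D are close copies of RAB6A, and which transcripts each probe reads was not examined.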

How the data were processed

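Whole-transcriptome RNA of 9 BON-1 samples was measured on Illumina HumanHT-12 v4 arrays. The authors deposited a bead-averaged intensity and a detection p-value per probe, neither background-subtracted nor normalized between arrays as far as the values show, and, per the submitters' processing notes, made in GenomeStudio (version not given in the sources used here). A second deposited table of intensity values, normalized by a method not stated, served as an alternative. Array number and signal over background limit the precision.

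Of 47231 probes, 22011 were detected (p under 0.05) on 3 arrays or more, and 16744 of these carried 1 symbol of the platform annotation. Signals were corrected by normexp (limma 3.58.1 in R 4.3.3, offset 16, with the negative controls inferred from detection p), quantile normalized and put on the log2 scale. The probe with the highest mean signal stood for each gene. A linear model with 3 groups and empirical Bayes moderation was fitted over 12498 genes, with Benjamini-Hochberg adjustment over all of them. The fit was tested on simulated data.

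The members, the role lists, the lists of GEFs, GAPs, effectors and prenylation genes and the alternatives were chosen with earlier results of these data known. Genes named by rule were RABL6, the called RAB genes and those sharing their number, the 4 largest uncalled changes each way, RAB3, RAB5, RAB7, RAB11, RAB27 and RAB31 genes, those near the detection limit or with differing probes, and up to 4 called genes each way per regulator list. Other RAB genes were named after their values were seen. Same-numbered arrays were compared by the correlation of their deviations from group means. Alternatives changed the background correction, normalization, source table, filter, probe choice, variance model, arrays fitted, block and single arrays.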

Additional observations from a re-analysis of the deposited data

How the results depend on the processing

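The count of called RAB genes depended most on the arrays fitted and the weights given to them, and the share of all genes moved with it. With array weights 32 were called for both shRNAs together, 25 for shRNA 1, 25 for shRNA 2 and 26 between the shRNAs, against 9, 5, 4 and 0. For both shRNAs 44.7% of all genes were called with these weights, against 16.6% in the main fit. On 7 arrays, with 2 arrays picked by their values left out, the RAB counts were 25, 22, 26 and 26. Beside them stood 41.2%, 43.9%, 35.4% and 41.2% of all genes. Leaving out single arrays gave 1 to 11, 1 to 9, 1 to 6 and 0 to 0 RAB genes. With only the compared groups in the fit, 8 RAB genes were called for shRNA 1, and with median centring 2 were called for shRNA 2. Deviations of same-numbered arrays had correlations of 0.03 to 0.09 between vector and shRNA 1 and of 0.07 to 0.15 between vector and shRNA 2. Between the shRNAs they were -0.89 to -0.24. The 2 replicate 2 arrays, each like the other shRNA, push these last values down, so they cannot decide whether equal numbers mark pairs. Pairing by number is not stated, and the main fit did not use it. With the replicate number as a block 4, 2, 1 and 0 RAB genes were called, beside 8.84% of all genes for both shRNAs together. For both shRNAs RAB5B, RAB22A, RAB33B, RAB9A and RAB11B lost their calls, leaving 4 higher and 0 lower. RABL6 stayed called and lower in all 23 alternatives, from -2.16 to -1.01, and from -2.06 to -1.86 without single arrays. RAB40B stayed called in all 23.

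Over 27 named RAB genes, 517 alternative values kept direction and call, 53 lost the call, 29 gained it and 18 changed sign, all 18 in 3 genes with changes near 0. RAB11A, at 0.02, was -0.16 with median centring, -0.02 with cyclic loess, -0.01 with array weights, -0.02 on 7 arrays and -0.04 to 0.05 without single arrays. RAB3A, at 0.03, was -0.04 with median centring and -0.10 to 0.12 without single arrays. RAB3B, at 0.00, was -0.16, -0.07, -0.04 and -0.01 under the same 4 settings as RAB11A and -0.21 to 0.20 without single arrays. The cause was not tested. RAB11B, RAB33A and RAB6B were not above background on any vector array, so the sizes of their changes are uncertain.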
